A study of Rattus norvegicus with 4 samples.

Results

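The striated muscle miRNAs are 6 names, rno-miR-1, rno-miR-133a, rno-miR-133b, rno-miR-206, rno-miR-208 and rno-miR-499, of the 680 rat miRNA names listed in small RNA libraries of liver. They were chosen by name, without the asterisk that marks the minor arm in the older naming, and all 6 have a row in each file. The study sequenced total RNA of rat liver labelled either as hepatic fibrosis tissue or as hepatic normal tissue, with 2 replicates under each label. The labels state neither the strain or age of the rats, nor how fibrosis arose, nor whether replicates came from separate animals. The second fibrosis file and the second normal file held the same value for every name, and the column header of the second normal file is not its sample title, so these files were counted as 1 library, called the duplicated library, with no group. The 3 distinct libraries were scaled by the authors to reads per 1000000 reads (RPM), of totals of 6951148 reads for fibrosis replicate 1, 7070374 for normal replicate 1 and 6357069 for the duplicated library. Taken as 3 reads, the highest level that 0 reads allow was 0.432, 0.424 and 0.472 RPM in these libraries.

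MicroRNAs are short RNAs that guide Argonaute proteins to messenger RNAs and repress them, mainly through pairing of the seed near the 5′ end. These 6 are known for their abundance in heart and skeletal muscle. miR-1 and miR-133a are cut from shared transcripts in heart and skeletal muscle, miR-206 and miR-133b from a shared transcript in skeletal muscle, and miR-208 (now miR-208a) and miR-499 lie within the myosin heavy chain genes Myh6 and Myh7b. In muscle miR-1 and miR-206 promote differentiation, miR-133 bears on proliferation, and miR-208 and miR-499 take part in the control of myosin isoforms. The liver has no striated muscle of its own. Its identity was checked with miR-122, the hepatocyte miRNA, which stood at 243915, 263140 and 247931 RPM in fibrosis replicate 1, normal replicate 1 and the duplicated library.

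The mature sequences show which members can share targets and which can exchange reads. They are credited to RefSeq (GRCr8 assembly), which held all 6, and are printed 5′ to 3′ with the seed, bases 2 to 8, in capitals. The deposited files hold names only, so the arm was taken from the known successors of the older names.
miR-1 (now miR-1-3p): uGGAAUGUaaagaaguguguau
miR-206 (now miR-206-3p): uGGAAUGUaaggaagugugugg
miR-133a (now miR-133a-3p): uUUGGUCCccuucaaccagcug
miR-133b (now miR-133b-3p): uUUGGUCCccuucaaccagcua
miR-208 (now miR-208a-3p): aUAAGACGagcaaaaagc
miR-499 (now miR-499-5p): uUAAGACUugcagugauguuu

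miR-1 and miR-206 had the same seed and differed at 3 of 22 positions (A11G, A21G and U22G, counted from the 5′ end with the base of miR-1 first). miR-133a and miR-133b had the same seed and differed at the last base only (G22A). Reads of such near copies may be exchanged, and how the authors assigned reads that match several miRNAs is not given in the sources used here. The separate values of miR-1 and miR-206, and of miR-133a and miR-133b, are therefore uncertain. miR-499 and miR-208 shared 6 of 7 seed bases but differed at 8 of the 18 positions compared. Among the 693 mature rat miRNAs of the RefSeq table, the seed of miR-499 occurred in no other, that of miR-133a and miR-133b in none besides them, and that of miR-1 and miR-206 also in miR-1b, which differs from miR-1 at 1 position (G17A). miR-1b was not analysed here, and reads exchanged between it and miR-1 would add to the uncertainty of miR-1 and of its ratios below. In the RefSeq annotation miR-1 and miR-133a lie on chromosome 18 within the span of Mib1, miR-206 and miR-133b on chromosome 9 within 1 long non-coding RNA gene, miR-208a on chromosome 15 within Myh6, and miR-499 on chromosome 3 within Myh7b.

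miR-499 made up most of the muscle miRNA reads in every library. Fibrosis replicate 1 held 121 reads of it, normal replicate 1 held 162 and the duplicated library 202. These correspond to 17.4 RPM (95% exact binomial interval 14.4 to 20.8), 22.9 RPM (19.5 to 26.7) and 31.8 RPM (27.5 to 36.5). The intervals cover counting error only, here and below, and leave out variation between animals or preparations. Without molecular identifiers 1 RNA molecule can give several reads, so they may be too narrow even for counting error. By RPM miR-499 stood at rank 61 of 250 detected miRNAs in fibrosis replicate 1, at rank 54 of 239 in normal replicate 1 and at rank 48 of 236 for the duplicated library. It stood far below miR-122 in all 3.

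miR-1 was the second member by level. Fibrosis replicate 1 held 14 reads of it, normal replicate 1 held 31 and the duplicated library 37, or 2.01 RPM (1.10 to 3.38), 4.38 RPM (2.98 to 6.22) and 5.82 RPM (4.10 to 8.02). Its rank was 123, 99 and 83. The libraries kept the same order as for miR-499, with fibrosis replicate 1 lowest and the duplicated library highest. miR-206, its skeletal muscle relative with the same seed, had 2, 4 and 4 reads, or 0.288, 0.566 and 0.629 RPM. The level in fibrosis replicate 1 lies under the level that a count of 0 allows, and the other 2 just above it.

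**Figure D1:**
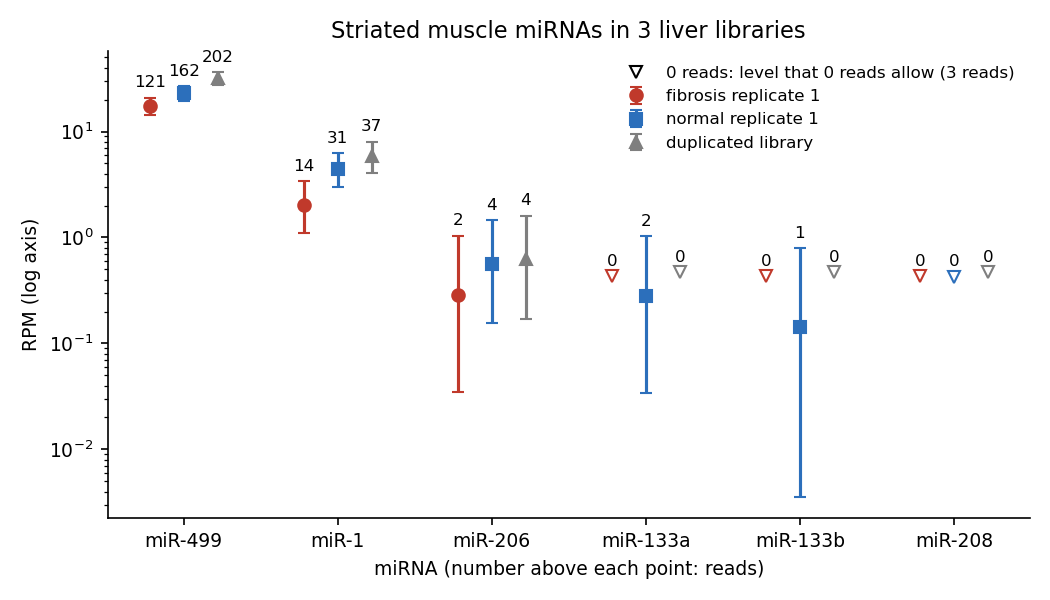
RPM on a log axis of the 6 muscle miRNAs in the 3 distinct libraries, with 95% exact binomial intervals (counting error only) and the number of reads above each point. Open triangles stand at the level that 0 reads allow. miR-499 lies highest at 17.4 to 31.8 RPM, miR-1 at 2.01 to 5.82 RPM, and the other 4 members near or under the detection limit.

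The miR-133 pair, whose transcripts also carry miR-1 and miR-206, was almost absent. miR-133a had 0 reads in fibrosis replicate 1, 2 in normal replicate 1 (0.283 RPM) and 0 in the duplicated library. miR-133b had 0, 1 (0.141 RPM) and 0 reads. All these levels are at or under what a count of 0 allows, so no ratio between libraries was formed. Such thin counts were common: 34.4%, 31.4% and 33.9% of the detected miRNAs had 1 to 3 reads in the same library order. Of the 20 names that normal replicate 1 alone held, miR-133a and miR-133b among them, 19 had 1 to 3 reads.

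miR-208, the miRNA of the cardiac myosin gene Myh6, had 0 reads in all 3 libraries. No reads were found either for the 8 listed names of the same loci or the closest relative that the rule leaves out, which are the asterisk arms of the 6 members and both arms of miR-208b, from the slow myosin gene Myh7. The muscle miRNAs seen were thus miR-1, miR-206 and miR-499 in fibrosis replicate 1 and in the duplicated library, and these 3 with miR-133a and miR-133b in normal replicate 1.

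The members were far from equal within a library. Of the 137 reads of muscle miRNAs that fibrosis replicate 1 held, 88.3% belonged to miR-499 (81.7 to 93.2), of the 200 of normal replicate 1 81.0% (74.9 to 86.2) and of the 243 of the duplicated library 83.1% (77.8 to 87.6). miR-1 took 10.2% (5.70 to 16.6), 15.5% (10.8 to 21.3) and 15.2% (10.95 to 20.4). These intervals overlap between the libraries. Per read of miR-1 there were 8.64 reads of miR-499 in fibrosis replicate 1 (4.96 to 16.3), 5.23 in normal replicate 1 (3.54 to 7.94), and 5.46 for the duplicated library (3.83 to 7.98). These are read ratios of RNAs of like length, and any preference of library preparation for one miRNA over another was not tested.

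The partners from shared transcripts or related myosin genes were not seen in step with miR-1 and miR-499. Set against a floor of 3 reads per library, which leaves out the counting error of the member that was read, miR-499 was at least 40.3-fold higher than miR-208 in fibrosis replicate 1, at least 54.0-fold higher in normal replicate 1 and, for the duplicated library, at least 67.3-fold higher. For miR-133a and miR-133b together, the reads of miR-1 were 4.67-fold the floor in fibrosis replicate 1 and 12.3-fold in the duplicated library. The upper limit for the share of the miR-133 pair in its reads and those of miR-1 was 23.2% and 9.49% there. In normal replicate 1, with 31 against 3 reads, the ratio of miR-1 to the pair was 10.3, with an exact interval of 3.22 to 52.8. Over the 3 libraries there were 82 reads of miR-1, 10 of miR-206, 2 of miR-133a, 1 of miR-133b and 485 of miR-499. miR-206 gave 10.9% of the reads that it and miR-1 had together (5.34 to 19.1), with 12.5%, 11.4% and 9.76% in the separate libraries.

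**Figure D2:**
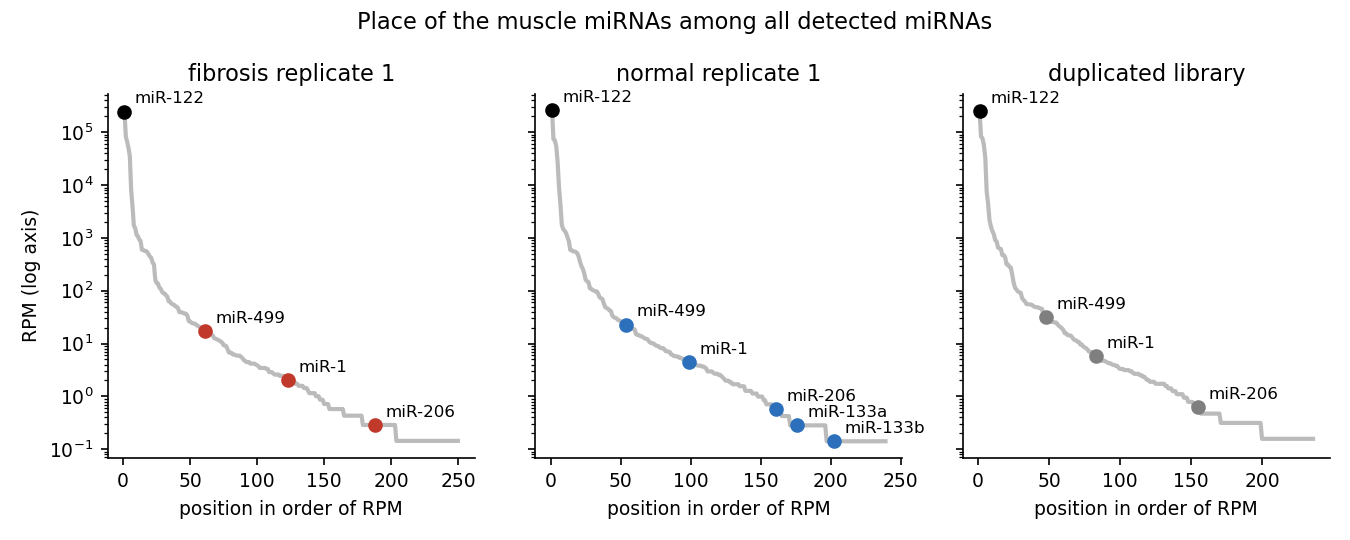
RPM on a log axis of all detected miRNAs in order of level, 1 panel per library, with the detected muscle miRNAs and miR-122 marked. Positions within a run of equal values are arbitrary. miR-499 sits at ranks 48 to 61 with 17.4 to 31.8 RPM, miR-1 at ranks 83 to 123, and miR-206, miR-133a and miR-133b on the steps made by 1 to 4 reads.

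The next higher and next lower miRNAs in the order of levels are given as a description of where the members stood. The neighbours of miR-499 were miR-125a-5p (17.8 RPM) and miR-497 (15.97 RPM) in fibrosis replicate 1, where miR-503 tied with it. They were miR-664-2* (23.9 RPM) and miR-130a (19.8 RPM) in normal replicate 1, and miR-146b (33.2 RPM) and miR-221 (31.1 RPM) in the duplicated library. The intervals of the read ratio to miR-499 included 1 for all of these, as their choice by closeness in level leads to. miR-1 lay between miR-451 (2.16 RPM) and miR-423 (1.87 RPM) in fibrosis replicate 1, between miR-200b (4.53 RPM) and miR-25* (4.10 RPM) in normal replicate 1, and between miR-25* (6.13 RPM) and miR-214 (5.66 RPM) in the duplicated library. Those intervals also included 1. miR-206 tied with other thinly read names in each library.

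The labels imply a comparison of fibrotic with normal liver, which only fibrosis replicate 1 and normal replicate 1 can give without the duplicated library. Of the 6 members, 3 had reads in both libraries and all 3 had lower values in fibrosis replicate 1, as had 54.7% of the 212 miRNAs with reads in both, while miR-133a and miR-133b had reads in normal replicate 1 alone and miR-208 in neither. The ratio, fibrosis replicate 1 over normal replicate 1, was 0.459 for miR-1 (95% counting interval 0.226 to 0.889), 0.760 for miR-499 (0.595 to 0.967) and 0.509 for miR-206 (0.0460 to 3.55). The interval of miR-206, on 2 against 4 reads, included 1. So did that of miR-499 after scaling by TMM or by DESeq2 size factors, with upper bounds of 1.01 under both. The median ratio over the 212 miRNAs was 0.954, and 0.926 over the 76 that averaged at least 10 RPM.

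Intervals below 1, as for miR-1 and miR-499, were frequent at this depth. They occurred for 11.9% of the 277 miRNAs with a read in either library and for 34.2% of the 76 that averaged at least 10 RPM, to which miR-499 belongs. A level lower by 1.5-fold or more was seen in 20.6% of the 277, names read in normal replicate 1 alone included. By that criterion miR-1, miR-206, miR-133a and miR-133b reached it, the last 3 on 4 reads or fewer in either library. Among the 76 it was seen in 1.32%, and miR-499 did not reach it. Summed over the 6 members, the level in fibrosis replicate 1 was 19.7 RPM (16.5 to 23.3), in normal replicate 1 28.3 RPM (24.5 to 32.5) and in the duplicated library 38.2 RPM (33.6 to 43.3), so the summed ratio was 0.697 (0.556 to 0.870). With 1 library on each side the difference has no replicate check and describes 2 libraries, not 2 conditions. In bulk tissue fewer cells of a type and less RNA per cell cannot be told apart.

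In the values of miR-499, miR-1 and miR-206 the duplicated library lay further from fibrosis replicate 1 than normal replicate 1 did. The ratio of the duplicated library to fibrosis replicate 1 was 1.83 for miR-499 (1.45 to 2.31), 2.89 for miR-1 (1.53 to 5.79) and 2.19 for miR-206 (0.313 to 24.2). A ratio of 1.5 or more between these libraries was seen in 23.0% of 274 miRNAs and intervals above 1 in 10.9%, and among the 72 that averaged at least 10 RPM in 6.94% and 33.3%. Its ratio to normal replicate 1 was 1.39 for miR-499 (1.12 to 1.72), 1.33 for miR-1 (0.801 to 2.21) and 1.11 for miR-206 (0.207 to 5.97), and intervals above 1 were seen there in 10.3% of 272 miRNAs and in 34.2% of the 73 that averaged at least 10 RPM. If the duplicated library came from fibrotic tissue, the fibrosis libraries would lie further apart than fibrosis replicate 1 and normal replicate 1. For miR-499 this would hold beyond the counting interval, and for miR-1 and miR-206 in the values alone. If the duplicated library came from normal tissue, both normal libraries would lie above fibrosis replicate 1 for these 3, for miR-206 in the values alone. The values do not settle which label applies. The column header equals the sample title in the second fibrosis file and not in the second normal file.

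**Figure D3:**
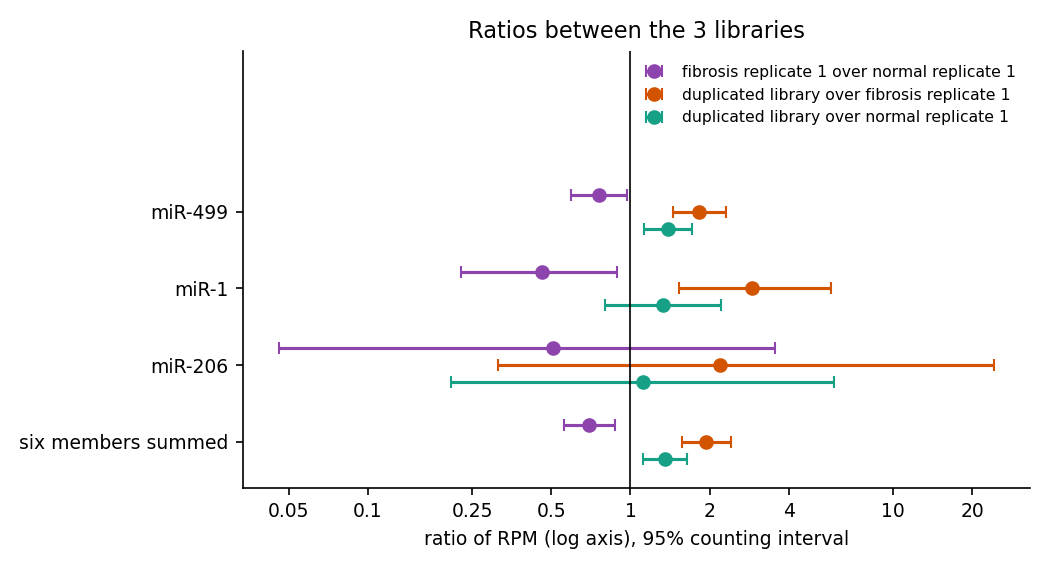
Ratios of RPM on a log axis between the 3 pairs of libraries for miR-499, miR-1, miR-206 and the summed 6 members, with 95% counting intervals. The line marks a ratio of 1. Ratios of fibrosis replicate 1 over normal replicate 1 lie below the line and those of the duplicated library over each of the others above it, and the intervals of miR-206 cross the line in all 3 pairs.

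The order with fibrosis replicate 1 lowest and the duplicated library highest held for all 3 members read in every library. The same order was seen in 14.8% of the 196 miRNAs read in all 3, and in 19.2% of the 73 of these that averaged at least 10 RPM. For miR-206 normal replicate 1 and the duplicated library both had 4 reads, so their order there comes from the scaling totals alone.

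A fit over all miRNAs with the 4 files as labelled called no member. limma on log2(RPM + 1) gave 0 of 294 miRNAs at an adjusted p under 0.05, or 0%, with 4 at an unadjusted p under 0.05, and edgeR's quasi-likelihood test on recovered reads gave 0, with 1 at an unadjusted p under 0.05. The fitted log2 difference, fibrosis minus normal, was -0.42 for miR-1 (SE 0.42), -0.19 for miR-499 (SE 0.36), -0.14 for miR-206 (SE 0.29), -0.18 for miR-133a (SE 0.16) and -0.10 for miR-133b (SE 0.15), with limma's adjusted p at 1 for all 5. miR-208, at 0 in all files, was not tested. Because the duplicated library stands in both groups of this fit, each difference is the mean of the difference between the first replicates and 0, and the absence of calls says little about the tissues.

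The miRNAs nearest in pattern to a member were sought among the 72 others that averaged at least 10 RPM over the 3 libraries. Like the members they lay lowest in fibrosis replicate 1, as their choice by this pattern leads to. Likeness was the Euclidean distance of log2(RPM + 0.5) after subtraction of each miRNA's mean over these 3 points, which is a description with few points. For miR-499 they were miR-193 (distance 0.19), with 21.4, 30.1 and 34.6 RPM in fibrosis replicate 1, normal replicate 1 and the duplicated library, miR-98 (0.20), with 9.35, 10.5 and 14.5 RPM, and miR-26b (0.21), with 444.5, 557.0 and 656.4 RPM. For miR-1 they were miR-193 (0.48), miR-143 (0.55), with 62.1, 97.3 and 91.2 RPM, and miR-26b (0.58). miR-1 moved over a wider range than any of these 3. For miR-206, on 10 reads in all, they were miR-30c-2* (0.08), miR-31 (0.11) and miR-26b (0.11). The level of miR-206 lies near the added 0.5, which narrows its pattern, so these small distances do not compare with those of miR-499.

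**Figure D4:**
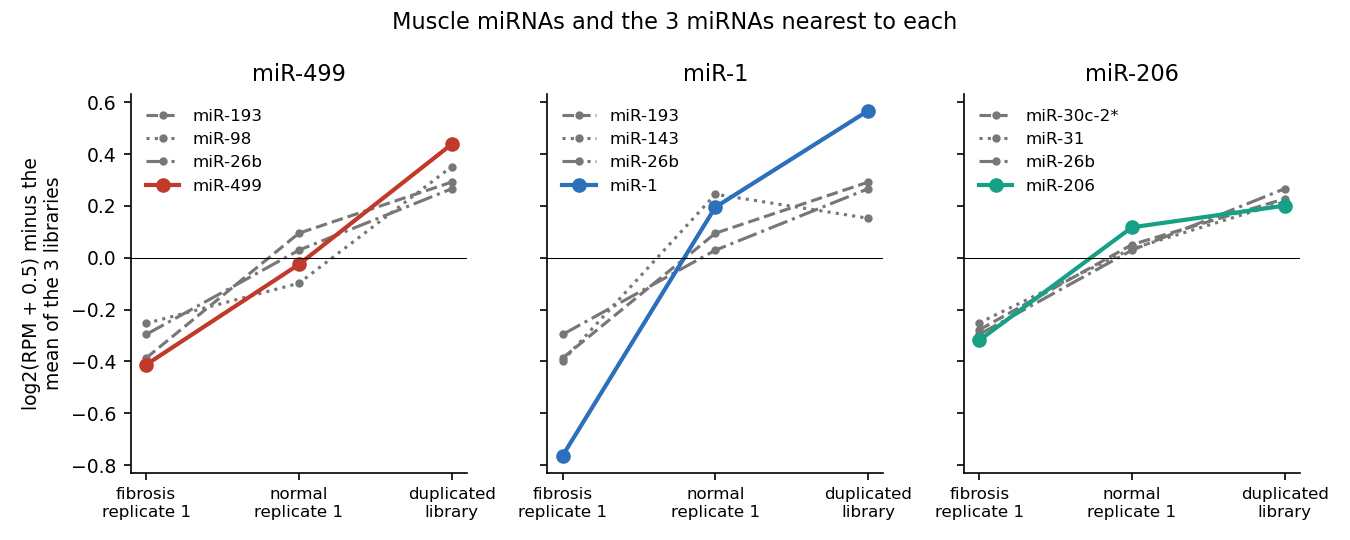
Values of log2(RPM + 0.5) minus the mean over the 3 libraries for miR-499, miR-1 and miR-206 (coloured) and the 3 miRNAs nearest to each (grey). Lines join points to guide the eye only, since the libraries have no order. miR-1 lies at -0.76 in fibrosis replicate 1 and 0.57 in the duplicated library, a wider span than its nearest miRNAs show.

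The 6 striated muscle names held 0.00391%, 0.00547% and 0.00728% of the reads on listed miRNAs. Their sum lay above those of the pancreatic, erythroid and endothelial lists in all 3 libraries and below those of the hepatocyte and the smooth muscle and fibroblast lists. Against the leukocyte and the brain list the order changed between libraries. The lists differ in their number of names, so their sums are not levels per name. The 5 brain miRNAs summed to 28.9, 25.6 and 26.4 RPM, nearly all of it miR-128 (26.6, 25.2 and 25.6 RPM), while neuronal miR-124 was at 0 in all 3 libraries. The 3 pancreatic miRNAs summed to 11.5, 8.91 and 4.56 RPM, nearly all miR-375, and the 5 embryonic miRNAs had 0 reads in every library. As with miR-499 in the muscle list, 1 name held most of the brain and of the pancreatic reads. The same was true of the hepatocyte (miR-122), smooth muscle and fibroblast (miR-199a-3p), leukocyte (miR-142-5p), erythroid (miR-451) and endothelial (miR-126*) lists.

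Levels of other cell types' miRNAs moved between the same libraries, and their part in the muscle miRNA values was not tested. The smooth muscle and fibroblast list, with 4 of 4 names read, summed to 666.7, 464.0 and 1007 RPM in fibrosis replicate 1, normal replicate 1 and the duplicated library. Within it miR-143 and miR-145, the smooth muscle pair, had ratios of fibrosis replicate 1 over normal replicate 1 of 0.639 (0.565 to 0.721) and 0.671 (0.482 to 0.930). miR-199a-3p, a mesenchymal miRNA, had 1.69 (1.61 to 1.78) and miR-214, from the same cluster, 1.30 (0.671 to 2.56). In the duplicated library, where miR-1 and miR-499 were highest, miR-199a-3p (903.4 RPM) and miR-214 (5.66 RPM) were highest too. There miR-143 (91.2 RPM) lay between its levels in the other libraries, and miR-145 (6.92 RPM) was lowest. The erythroid pair miR-144 and miR-451 summed to 2.88, 7.78 and 2.05 RPM, with normal replicate 1 highest. The 4 leukocyte names summed to 41.9, 28.0 and 59.6 RPM and the 2 endothelial names to 7.77, 6.51 and 10.9 RPM, with normal replicate 1 lowest in both. The 3 hepatocyte names summed to 251792, 272148 and 255470 RPM.

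**Figure D5:**
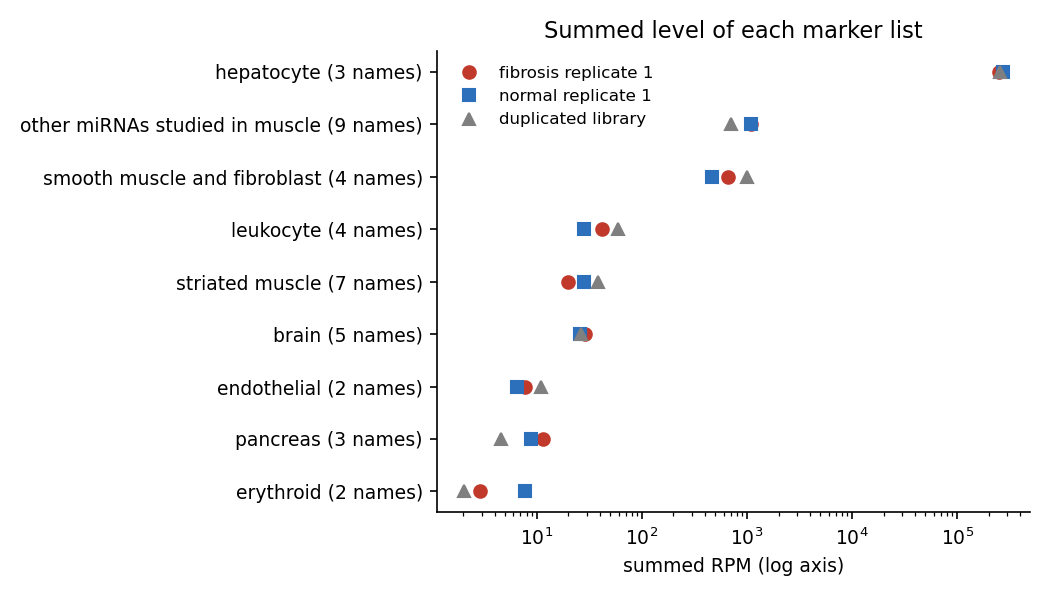
Summed RPM on a log axis of each marker list in the 3 libraries, with the number of listed names having a row. The striated muscle list, here with miR-208b-3p added at 0 reads, sums to 19.7 to 38.2 RPM, and the embryonic list, at 0 in every library, is not drawn.

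Other miRNAs studied in muscle, but made in many tissues, lay on both sides. Of 9 with a row, 3 were lower and 6 higher in fibrosis replicate 1 than in normal replicate 1. Their median ratio was 1.20. Over the 212 miRNAs with reads in both, 54.7% were lower and the median ratio was 0.954. The intervals excluded 1 for miR-503, a cell cycle regulator (1.92, 1.41 to 2.65), miR-181a (1.47, 1.22 to 1.79), miR-27b (1.37, 1.06 to 1.78) and, on the lower side, miR-26a (0.948, 0.901 to 0.998). The share of all miRNAs with an interval above 1 in this pair is not given here, so these are not read as unusual. miR-378, which lies within Ppargc1b, stood at 487.5, 511.0 and 283.0 RPM in fibrosis replicate 1, normal replicate 1 and the duplicated library.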

How the data were processed

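Small RNAs were sequenced from total RNA of rat liver after preparation with an Illumina kit, per the labels' protocols. CASAVA 1.4 and the build rn5 are named by the submitters' processing notes, and the aligner and miRNA annotation were not stated there. The authors deposited 1 table per sample in reads per 1000000 reads (RPM). All values above 0 were whole multiples of a smallest step, and 100% gave whole reads within 0.01 reads. The listed miRNAs held 50.5% to 52.5% of the recovered totals.

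Ratios between libraries carry exact Clopper-Pearson intervals computed from the reads. limma 3.58.1 (R 4.3.3), with a trend of the variance on the mean, was run on log2(RPM + 1) of 294 miRNAs above 0 in any library, with p-values adjusted after Benjamini and Hochberg. Tested on simulated reads with known changes, it recovered most of them, with false calls mainly among miRNAs under 1 RPM. The simulated libraries were all separate and had a fixed, small spread. Their changes were large and set only in miRNAs at 1 RPM or more, so the setting differs from these data. Whether limma recovers differences as small as those of the members, with the duplicated library in both groups, was not tested. On the scale of log2(RPM + 1) differences of low miRNAs are understated. edgeR 4.0.16 and DESeq2 1.42.0, on recovered reads, were alternatives, as were other scalings, filters and pseudocounts and leaving out each file. Python 3.11.15, scipy 1.17.1 and matplotlib 3.10.9 were used. Named miRNAs are the 6 members, their neighbours by RPM, the 3 nearest in pattern for members with at least 10 reads, and the marker lists. Members and lists were chosen with earlier results of these data known. miR-486 is not reported here. p-values set a difference against the spread between these libraries, which may be technical. In the main limma fit that spread was taken wholly from the trend over all miRNAs.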

Additional observations from a re-analysis of the deposited data

How the results depend on the processing

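Under 5 other scalings (reads on listed miRNAs, TMM, DESeq2 size factors, upper quartile, miR-122 left out) the ratio of fibrosis replicate 1 over normal replicate 1 stayed below 1 for miR-1 (0.437 to 0.481), miR-499 (0.723 to 0.796), miR-206 (0.484 to 0.533) and the sum of the 6 members (0.663 to 0.730). The interval of miR-499 reached 1.01 with TMM and with DESeq2 size factors and so included 1, while that of miR-1 excluded 1 under all 5. Adding the 8 names of the same loci left the summed ratio at 0.697. The library chosen changed the direction. Without fibrosis replicate 1, when the duplicated library stands for fibrosis, the ratios were 1.33 for miR-1, 1.39 for miR-499, 1.11 for miR-206 and 1.35 for the sum. Without normal replicate 1 they were 0.346, 0.548, 0.457 and 0.516. The count of called miRNAs was 0 in limma under every pseudocount, filter and scaling tried, with each file left out and with the identical files counted once in either group, and 0 in edgeR and DESeq2. Counted once in fibrosis, 36 miRNAs had an unadjusted p under 0.05, and 27 when counted once in normal. Counting the identical files once is the same fit as leaving out 1 of the second files, so these are not separate checks. edgeR after its expression filter and DESeq2 without independent filtering were chosen after seeing the data. With the replicate number as a block the count was 0 too, with 0 at an unadjusted p under 0.05. Same-numbered files share only a number: the identical second files force the correlation of deviations, 0.68, so it is no evidence of pairing. Depth limits miR-206, miR-133a, miR-133b and miR-208, which had 0 to 4 reads.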
